A study of Mus musculus with 4 samples.

Results

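The genes described here encode the receptors, kinases and transcription factors through which stem cell factor (SCF), interleukin-3 (IL-3) and interleukin-6 (IL-6) act. They are 10 genes, Kit, Il3ra, Csf2rb, Csf2rb2, Il6ra, Il6st, Jak1, Jak2, Stat3 and Stat5a, found by their exact symbols among the 7821 gene labels of the authors' deposited table. Together they held 900 of its 506952 positions. The study measured 5-methylcytosine in poly(A) RNA of cultured mouse AML cells, the NRAS/AE9a leukemic line, by bisulfite sequencing: 2 libraries of Tet2 KO cells, which lack TET2, a dioxygenase acting on 5-methylcytosine, and 2 of WT cells. AE9a is a shortened AML1-ETO fusion protein. Both genotypes were kept in the 3 cytokines (10 ng/ml of IL-6, 10 ng/ml of IL-3 and 50 ng/ml of SCF) under selection with puromycin (2 µg/ml) and G418 (1 mg/ml). The labels name no separate cultures, so the spread between libraries may be technical, and they do not give the deleted part of Tet2.

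Bisulfite turns unmethylated cytosine into uracil, so a position's methylation level is read here as the share of C among the reads used for it, as a fraction. No source used here says why some covering reads were left out of the level. Going by the table's name, its positions were called in Tet2 KO libraries alone. It has 0 columns of WT values and 0 columns of a single library, so no difference between Tet2 KO and WT cells was tested, and a gene with few or no listed positions was not shown to lack methylation. The lowest listed level was 0.2, and each position had 10 or more covering reads. Tet2 itself held 1 listed site, at 133464345 on chromosome 3, with C in 3 of 11 reads used (level 0.273, Wilson 95% interval 0.0975 to 0.566). This is no check of the knockout.

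SCF binds KIT, a receptor tyrosine kinase of blood stem and progenitor cells and of mast cells. IL-3 binds a receptor made of a specific alpha chain and a beta chain, and IL-6 binds its alpha receptor together with the signal transducer gp130. None of these cytokine receptors has kinase activity of its own: Janus kinases bound to them phosphorylate STAT proteins, which then enter the nucleus, and in myeloid cells this drives growth, survival and differentiation.

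RefSeq sequence (GRCm38.p6, the assembly of mm10) was held for 6 of the 900 listed positions. They lie by annotated transcript starts of Il3ra and Jak2 and in a miRNA inside Csf2rb. They are shown because they tell which base stood at a called position. Capitals mark listed positions, and all stretches run 5′ to 3′.
Il3ra, chr14:14346490-14346519, plus strand: CcagcgccgtgggcgcCaCtCaggtccggt
Jak2, chr19:29251823-29251852, plus strand: tgggcggGcccccgctctgggcgagCtcgc
miR-7676-5p in Mir7676-2, chr15:78348599-78348621, plus strand: agGgcaguaugauggccucugau
miR-7676-5p in Mir7676-1, chr15:78284827-78284849, minus strand: agggcaguaugauggccucugau
By the transcript start of Il3ra, the 3 positions labelled with the gene, 14346506, 14346508 and 14346510, are cytosines. All were called in both Tet2 KO replicates, with mean levels of 0.623 ± 0.109, 0.725 ± 0.0354 and 0.772 ± 0.0636 (SD, n = 2 each). The capital at 14346490 is a listed cytosine without a gene label, 5 bases before this annotated transcript start at 14346495. It still lies inside the Il3ra gene span used below, which begins at 14345912. The 3 labelled positions lie 594 to 598 bases into that span. At the start of Jak2, the position 29251848 is a cytosine and showed C in every read used in both replicates (level 1), with a mean of 10 C reads among 24 covering reads. The other Jak2 position, 29251830, is a G in the reference, yet it was listed with C in 9 of 10 reads used (Wilson interval 0.596 to 0.982). The Csf2rb position 78348601, base 3 of miR-7676-5p, is also a G and was listed with C in 14 of 21 reads used (level 0.667, Wilson interval 0.454 to 0.828).

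On the plus strand, the reference base was not a cytosine at many listed positions of the series. Of 6037 plus-strand positions with RefSeq sequence from windows around transcript starts and miRNA hairpins, 3138 were C (52.0%), 1811 G, 1088 A and 0 T. Reading the same positions 1 base to the right gave 1133 T and 30.2% C, so the coordinates were taken as given. Among positions called in 1 replicate, all 1527 at which fewer than 70% of the covering reads entered the level were C, whereas 1021 of 3648 with 70% or more were C (exact 95% interval 26.5% to 29.5%). Of those used at 70% or more with at least 20 covering reads, 81 of 827 were C (9.79%). These windows lie at transcript starts and miRNA hairpins and were not matched to the rest of the genes. The base under the other 894 member positions was not read here. At positions called in both replicates, 590 of 862 on the plus strand were C (68.4%) and 12 of 14 on the minus strand (85.7%, exact 95% interval 57.2% to 98.2%). Of minus-strand positions of all kinds, 132 of 146 were C (90.4%), beside the 52.0% on the plus strand. The share of covering reads used is therefore given beside the single-call sites named below, and its part in the levels was not tested.

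All 10 genes had at least 1 listed site, beside 34.2% of 21900 protein-coding genes. Since the genes were named with results of these data known, that count is a description. The count followed the strand. The 6 genes on the plus strand held 889 sites, from 49 in Il3ra to 294 in Csf2rb, and the 4 on the minus strand held 11, from 1 in Il6ra and Jak1 to 5 in Stat3. Across the series 51.3% of plus-strand and 18.5% of minus-strand protein-coding genes had a site, 49.7% and 1.24% had 5 or more, and the median labelled gene had 68 sites on the plus strand, but 1 on the minus strand. The members thus split as all genes of the table did, and a low count in Il6ra, Jak1, Stat3 or Csf2rb2 cannot be told apart from the strand. Within their strand, Stat3 and Csf2rb2 ranked high. Of 2050 minus-strand labelled genes, 4.10% had more sites than Stat3 and 6.93% more than Csf2rb2, beside 39.8% for Il6ra and Jak1.

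**Figure D1:**
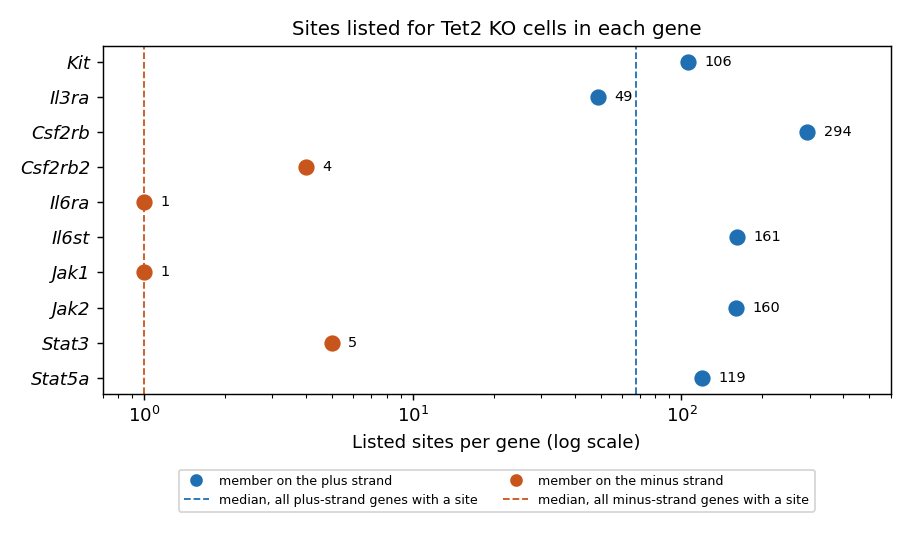
Number of listed sites per gene on a log axis, with the gene's strand in colour and dashed lines at the medians of all genes with a site on each strand (68 for plus, 1 for minus). The 6 plus-strand genes lie between 49 and 294 sites and the 4 minus-strand genes between 1 and 5, with no overlap.

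Among the receptors, Kit (chromosome 5, 75574987 to 75656722) had 106 sites with a median level of 0.531 and quartiles of 0.364 and 0.75. Coverage was the shallowest of the 6 plus-strand members, with a median of 15 reads and a range of 10 to 29. At 20 or more covering reads 4 Kit sites tied at a level of 1; the one with the most reads used, 75607037, showed C in 13 of 13 (Wilson interval 0.772 to 1), with 61.9% of covering reads used. The site with the most reads used, 75639080, had C in 11 of 21 (level 0.524, interval 0.324 to 0.717), with 80.8% used. The deepest site called in both replicates, 75648471, had levels of 0.582 and 0.714 in the replicates (mean 0.648 ± 0.0933, SD, n = 2). Kit levels thus covered the whole listed range, and no Kit site reached 50 covering reads.

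Il3ra, which encodes the IL-3 receptor alpha chain (chromosome 14, 14345912 to 14355493), had 49 sites, fewer than the plus-strand median. Its median level of 0.647 (quartiles 0.462 and 0.769) was the highest of the members, and 5.28% of 5433 plus-strand genes with 5 or more sites had a higher one. At 20 or more covering reads 4 Il3ra sites tied at a level of 1; the one with the most reads used, 14347075, showed C in 15 of 15 (Wilson interval 0.796 to 1), where 38.5% of 39 covering reads were used. The site with the most reads used, 14349290, had C in 27 of 58 (0.466, interval 0.343 to 0.592), with 81.7% used. At 14350117, the deepest site called in both replicates, the levels were 0.231 and 0.463 (mean 0.347 ± 0.164, SD, n = 2). Outside runs of sites the Il3ra median was 0.467 over 14 sites.

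Csf2rb, which encodes the beta chain shared by the receptors for IL-3, IL-5 and GM-CSF (chromosome 15, 78325800 to 78351001), carried the most sites. Its 294 sites were exceeded in 1.44% of plus-strand genes with a site, and its 11.7 sites per kilobase of gene span by 11.9% of those with 5 or more sites. The median level was 0.5 (quartiles 0.364 and 0.7), with a median of 19 covering reads and a range of 10 to 213; across the 17 sites that had at least 50 covering reads, the levels had a median of 0.31. The deepest site of all members, 78349629, had C in 33 of 164 reads used (level 0.201, Wilson interval 0.147 to 0.269), with 77.0% of covering reads used. Of the other single calls with over 100 covering reads, 78350882 had C in 15 of 62 reads used (0.242, interval 0.152 to 0.362, 44.6% used) and 78340537 in 20 of 69 (0.29, interval 0.196 to 0.406, 67.6% used). At 78348590, C stood in 51 of 87 reads used (0.586, interval 0.481 to 0.684, 80.6% used). The highest site at 20 or more reads, 78328763, had C in 18 of 18 (interval 0.824 to 1), with 81.8% used, and the deepest site called in both replicates, 78349901, had levels of 0.212 and 0.25 (mean 0.231 ± 0.0269, SD, n = 2). Of the 5 Csf2rb sites with over 100 covering reads, 4 thus lay between 0.201 and 0.29 and 1 stood higher.

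Csf2rb2 encodes a second beta chain, specific for IL-3 in the mouse, and lies beside Csf2rb on the opposite strand (chromosome 15, 78282507 to 78305721, minus strand). It had 4 sites, each called in 1 replicate, with levels of 0.2, 0.273, 0.308 and 0.333 from 10, 11, 13 and 12 reads used. The highest of its sites, 78293914, had C in 4 of 12 reads (Wilson interval 0.138 to 0.609), and 31.6% of 38 covering reads were used. These levels lie below the median of Csf2rb, but the Wilson intervals of all 4 sites hold that median. The median level was 0.231 over all minus-strand sites and 0.531 over all plus-strand sites. Gene and strand thus cannot be told apart in this comparison. The pair share sequence: the hairpin of Mir7676-1 inside Csf2rb2 and that of Mir7676-2 inside Csf2rb are identical over all 62 bases, and the table gave both miRNA names to the Csf2rb position 78348601. No source used here says how reads that fit both genes were assigned, so the counts of Csf2rb and Csf2rb2 are uncertain where the genes match.

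For IL-6, the alpha receptor gene Il6ra (chromosome 3, 89869324 to 89913196, minus strand) had 1 site, at 89869577, 253 bases from its 3′ end. It showed C in 3 of 11 reads used out of 17 (level 0.273, Wilson interval 0.0975 to 0.566). Il6st, which encodes gp130 (chromosome 13, 112464070 to 112506860, plus strand), had 161 sites with a median level of 0.5 (quartiles 0.344 and 0.667) at a median of 18 covering reads. Its highest site at 20 or more covering reads, 112497811, had C in 20 of 22 reads used (0.909, interval 0.722 to 0.975), with 81.5% of covering reads used. The site with the most reads used, 112505912, had C in 29 of 38 (0.763, interval 0.608 to 0.870), with 84.4% used. The deepest site called in both replicates, 112504410, had levels of 0.308 and 0.334 (mean 0.321 ± 0.0184, SD, n = 2). The interval of the Il6ra site held the Il6st median, but it rests on 11 reads at 1 site and is too wide to compare these genes. They also lie on opposite strands.

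Jak1 and Jak2 encode kinases bound to these receptors, JAK2 to the IL-3 receptor beta chain and both to gp130. Jak1 (chromosome 4, 101151974 to 101265282, minus strand) had 1 site, at 101175175, with C in 3 of 13 reads used out of 28 (level 0.231, Wilson interval 0.0818 to 0.503). Jak2 (chromosome 19, 29251803 to 29313095, plus strand) had 160 sites. Its median level of 0.4355 (quartiles 0.306 and 0.619) was the lowest of the plus-strand members, and 93.6% of plus-strand genes with 5 or more sites had a higher median. At 20 or more covering reads 4 Jak2 sites tied at a level of 1; of these 29251910 lies 107 bases from the annotated start and, like 29251912, had C in 29 of 29 reads used (interval 0.883 to 1), with 82.9% of covering reads used. The site with the most reads used, 29301073, had C in 51 of 81 (0.63, interval 0.521 to 0.727), with 82.7% used. At 29252514, the deepest site called in both replicates, the levels were 0.382 and 0.468 (mean 0.425 ± 0.0608, SD, n = 2). Jak2 levels were lower where reads were more: the median was 0.37 over 81 sites with 20 or more covering reads and 0.545 over 79 shallower ones, against 0.5 and 0.545 over all plus-strand sites.

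Stat3 and Stat5a encode the transcription factors best known downstream of IL-6 and of IL-3, and they are neighbours on chromosome 11 on opposite strands. Stat3 (100886806 to 100939594, minus strand) had 5 sites, with levels of 0.2, 0.2, 0.211, 0.217 and 0.263. The highest of the Stat3 sites, 100893180, had C in 5 of 19 reads used out of 51 (Wilson interval 0.118 to 0.488), and 100896402 had C in 5 of 23 out of 62 (0.217, interval 0.0966 to 0.419). Stat5a (100859351 to 100885169, plus strand) had 119 sites with a median level of 0.538 (quartiles 0.385 and 0.6795). At 20 or more covering reads 5 Stat5a sites tied at a level of 1; the one with the most reads used, 100883925, had C in 20 of 20 (interval 0.839 to 1), with 87.0% of covering reads used. The site with the most reads used, 100880518, had C in 45 of 71 (0.634, interval 0.518 to 0.736), with 86.6% used. The deepest site called in both replicates, 100861427, had levels of 0.296 and 0.316 (mean 0.306 ± 0.0141, SD, n = 2). All Stat3 levels lay below the lower quartile of Stat5a. Stat3 sites had a median of 40 covering reads and Stat5a sites 21. The median level was 0.231 over all minus-strand sites and 0.531 over all plus-strand sites. Gene, depth and strand thus cannot be told apart in this comparison.

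**Figure D2:**
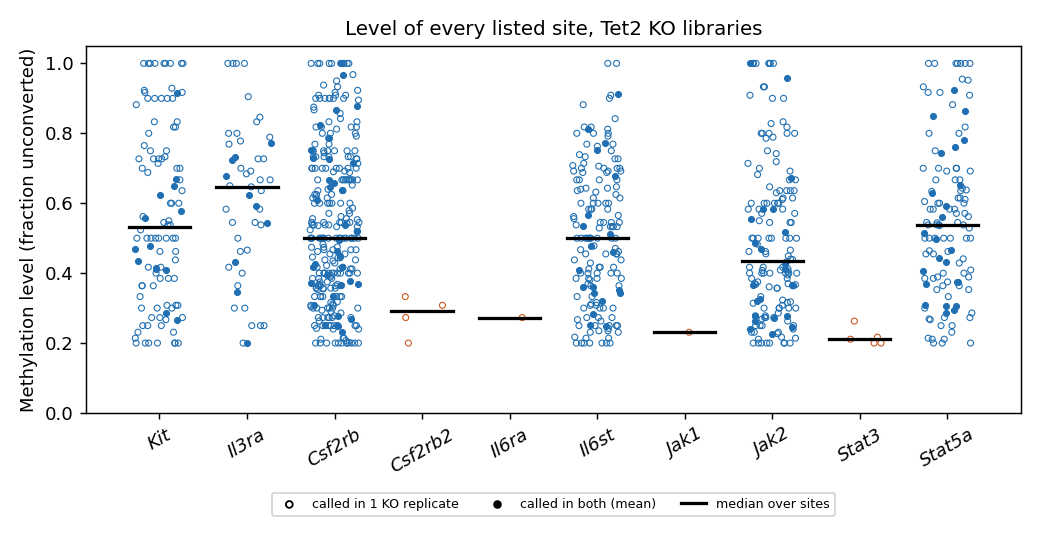
Methylation level (fraction of C among the reads used) of each of the 900 listed sites by gene, as open points for calls in 1 Tet2 KO replicate, filled points for the mean of both and black lines for the gene's median; blue genes are on the plus strand and orange ones on the minus strand. Plus-strand genes reach from 0.2 to 1 with medians between 0.4355 and 0.647, and minus-strand sites stay between 0.2 and 0.333.

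Pooled over the plus-strand members, the median level was 0.5 with quartiles of 0.361 and 0.7, beside 0.531, 0.371 and 0.7 over all 502191 plus-strand sites. The 11 minus-strand sites had a median of 0.231, the same as all 4761 minus-strand sites. A level of 1 was listed for 41 plus-strand member sites (4.61%), beside 3.98% of all plus-strand sites, and for 0 minus-strand ones. By gene these were 11 in Csf2rb, 9 in Kit, 8 in Jak2, 7 in Stat5a, 4 in Il3ra and 2 in Il6st. The levels of single calls rested on 10 to 164 reads used, with a median of 13. Wilson intervals cover counting error only, and those of sites picked as the highest are not corrected for that choice.

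Most covering reads entered the level at some sites and few at others. Of 774 member sites with 1 call, 196 had fewer than 70% of covering reads used (25.3%, exact 95% interval 22.3 to 28.5), beside 26% of all sites with 1 call. On the plus strand the share was 24.6%, beside 25.6%, and on the minus strand 8 of 11, beside 72.5%. By gene it ran from 15.2% in Jak2 to 38.9% in Stat5a, with 23.3% in Csf2rb, 23.9% in Kit, 24.1% in Il6st and 35.9% in Il3ra. Of 325 plus-strand sites with 20 or more covering reads, 139 lay under 70%, 7 between 70% and 80%, and 179 at 80% or above. Of the highest sites named above, those of Kit and Il3ra belong to the first of these classes. Those of Csf2rb, Il6st, Jak2 and Stat5a belong to the last. In the windows with RefSeq sequence, plus-strand single calls with 20 or more covering reads were C at 969 of 969 positions under 70%. At 70% or more, 81 of 827 were C. The base under these highest sites was not read, so whether they are cytosines is not known. The median level below 70% was 0.5 over 188 plus-strand sites and at 70% or more it was 0.538 over 575. The order differed by gene: in Jak2 the medians were 0.269 below and 0.5 above, and in Kit 0.65 below and 0.512 above.

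**Figure D3:**
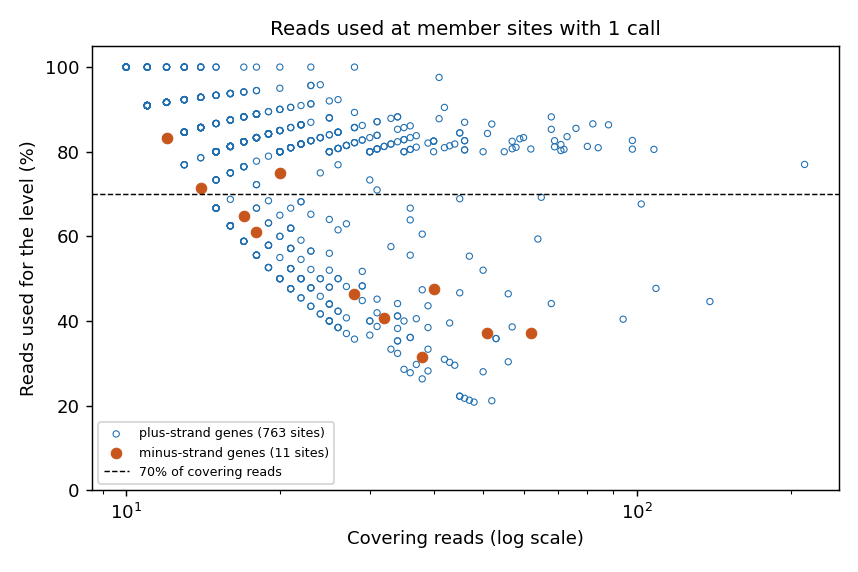
Share of the covering reads that entered the level (%) against the number of covering reads (log axis) for the 774 member sites called in 1 Tet2 KO replicate, with a dashed line at 70%. With 20 or more covering reads, the plus-strand sites form a band at 80% or above (179 sites) and a lower cloud under 70% (139 sites), and 8 of the 11 minus-strand sites lie under the line.

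Calls in both replicates made up 126 of the 900 sites (14%, exact 95% interval 11.8 to 16.4), beside 14.2% of all sites. They numbered 36 of 294 in Csf2rb, 24 of 119 in Stat5a (20.2%, interval 13.4 to 28.5), 22 of 160 in Jak2, 20 of 161 in Il6st, 14 of 106 in Kit and 10 of 49 in Il3ra (20.4%, interval 10.2 to 34.3). The minus-strand genes had 0 of 11, beside 10.9% of all minus-strand sites; a count this small allows up to 28.5%. At the 126 sites the replicates differed by a median of 0.089 in level, beside 0.1 over the whole table. The difference exceeded 0.2 at 18 sites. Kit had the widest differences, with a median of 0.161 over 14 sites and 2 of them within 0.1, and Csf2rb the narrowest, with a median of 0.068 and 25 of 36 within 0.1. The largest was at Kit 75652559, with levels of 0.3 and 0.818 (mean 0.559 ± 0.366, SD, n = 2) at a mean of 16 covering reads. At Jak2 29301081, with a mean of 71 covering reads, the levels still were 0.429 and 0.683 (mean 0.556 ± 0.180). Only sites called in both libraries enter, and which replicate was the higher is not given.

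**Figure D4:**
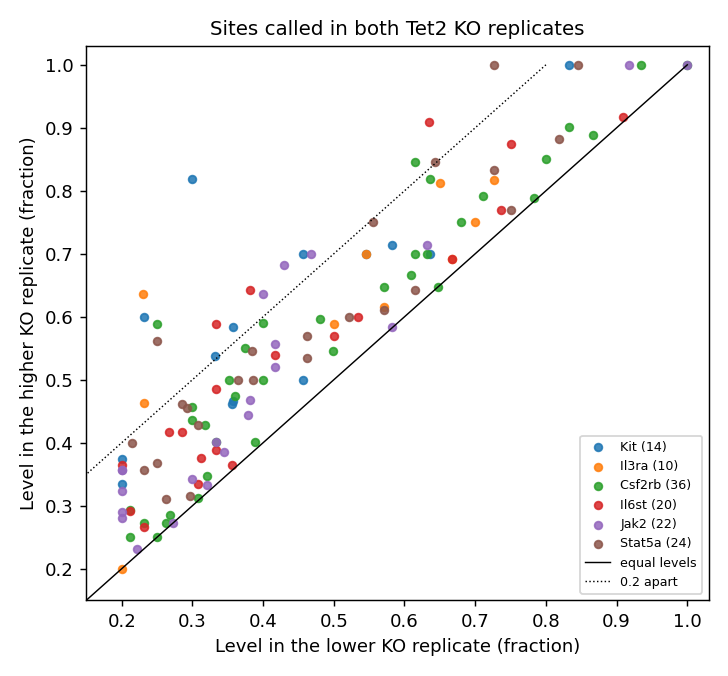
Level in the higher against the lower Tet2 KO replicate (fractions) at the 126 member sites called in both, coloured by gene, with a solid line for equal levels and a dotted line for a difference of 0.2. Most points lie between the lines, 18 lie beyond the dotted one, and the farthest is a Kit site at 0.3 and 0.818.

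Position along the gene differed among the 6 plus-strand members. In Il6st 109 of 161 sites (67.7%) and in Kit 50 of 106 (47.2%) lay in the last 10% of the gene span, beside 28.8% of all pairs of a site and a plus-strand gene. The share was 31.1% in Stat5a, 11.3% in Jak2, 10.5% in Csf2rb and 4.08% in Il3ra (2 sites). Il3ra had 47 of its 49 sites in the first 5 of 10 equal parts of its span, and of these 25 lay between 14346506 and 14347175. Pooled over the plus-strand members, the share was 27.8% (exact interval 24.9 to 30.9), close to that of the whole table, from genes far on either side. Exons and untranslated regions were not analysed here, and parts of a span mix exons and introns.

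**Figure D5:**
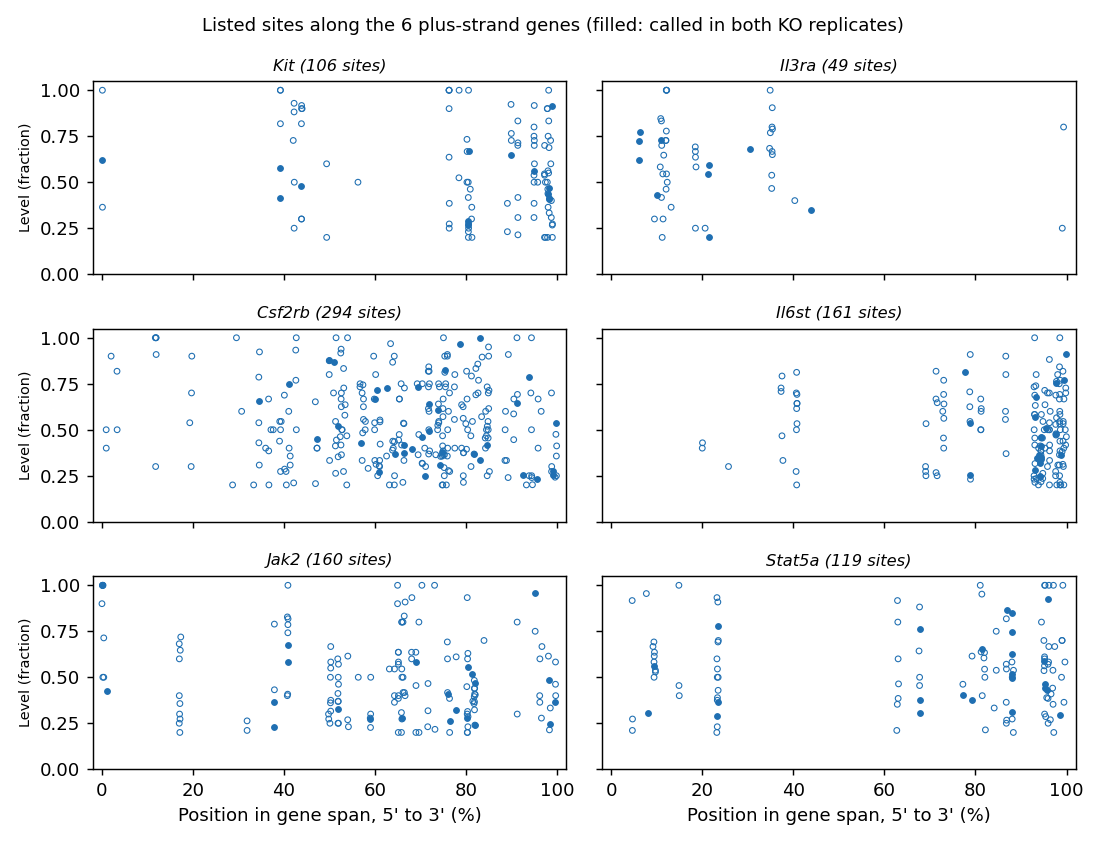
Level (fraction) of each listed site against its position in the gene span (0% at the 5′ end, 100% at the 3′ end) for the 6 plus-strand genes, with filled points for calls in both Tet2 KO replicates. Sites crowd at the 3′ end in Il6st and Kit, at the 5′ side in Il3ra, and spread over most of the span in Csf2rb and Jak2.

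Sites stood in separate clusters. Split at gaps over 500 bases, Jak2 had 26 clusters, Kit 15, Il6st 12, Csf2rb and Stat5a 10 each, and Il3ra 4. The largest was in Csf2rb, with 172 sites from 78340087 to 78347248 and a median level of 0.5095. In Il6st, 59 sites lay from 112503805 to 112505320 (median level 0.417) and 50 from 112505830 to 112506842 (median 0.5), ending 18 bases before the gene's end. In Kit 32 sites lay from 75654425 to 75655859 (median 0.485), and in Stat5a 37 from 100883746 to 100885076 (median 0.562). Another listed site within 10 bases on the strand stood beside 596 of the 889 plus-strand sites (67.0%, exact interval 63.8 to 70.1), against 70.6% of all plus-strand sites, and beside 0 of the 11 minus-strand ones, against 31.4% of all minus-strand sites. The share over both strands was 66.2%, against 70.3% of all sites. The longest run was in Il6st, 11 sites within 39 bases from 112506207, with levels from 0.2 to 1 and all called in 1 replicate. In Stat5a 9 sites stood within 23 bases from 100882068, 6 of them called in both replicates. In Il3ra 8 sites stood within 20 bases from 14347063, with levels from 0.462 to 1, and at most 47.4% of covering reads were used at any of them.

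Of 53 other genes of these pathways, 38 had a listed site (71.7%), beside 34.2% of all protein-coding genes, 51.3% of those on the plus strand and 18.5% of those on the minus strand. They were 26 plus-strand genes with 46 to 221 sites and 12 minus-strand genes with 1 to 5. The 26 had a median gene level of 0.5235 and the 12 of 0.237. Among ligands, 1 of 5 had a site, Il6 with 46 sites (median level 0.4, 0 called in both replicates). Kitl and Il5 on the plus strand and Il3 and Csf2 on the minus strand had 0. Of 7 related receptor genes 2 had sites, Csf3r, the G-CSF receptor gene, with 221 and Csf1r, the M-CSF receptor gene, with 82. Of the other kinases 4 of 5 had sites, led by Jak3 with 184 (median level 0.6405) and Syk with 164. Of the other STAT genes 4 of 5 had sites, led by Stat2 with 159. All 4 are on the plus strand, while Stat5b, with 0, is on the minus strand.

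Adaptor genes had sites in 7 of 8, led by Gab2 with 206 and Vav1 with 136. Genes of inhibitors had sites in 12 of 15, led by Inpp5d, which encodes the phosphatase SHIP1, with 209 and Ptpn1 with 117. Of the feedback inhibitors induced by STATs, Cish had 113 sites on the plus strand (median level 0.545). On the minus strand, Socs1 had 0, Socs2 had 1 and Socs3 had 2. All 8 target genes had sites, led by Myc with 113 (median level 0.538) and Pim2 with 96. Of the genes with sites, 4 of the 7 adaptors, 6 of the 12 inhibitors and 2 of the 8 targets are on the minus strand. Among pathway genes with a site the counts again divided by strand, with no overlap. Across the series 51.3% of plus-strand and 18.5% of minus-strand protein-coding genes had a site, and 49.7% and 1.24% had 5 or more.

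Among markers of the labelled cell type, 9 of 12 myeloid and blast genes had sites, including Mpo, Cd34 and Spi1 on the plus strand. On the minus strand, Cd33 had 3 sites, Runx1 had 1, and Ptprc and Ctsg had 0. Cebpe also had 0. Of all protein-coding genes 34.2% had a site (51.3% on the plus strand, 18.5% on the minus strand). Mast cell and basophil markers, of cells that also carry KIT and the IL-3 receptor, had sites in 3 of 8 (Gata2 73, Mcpt8 2, Cpa3 1), and at least 6 of the 8 are on the minus strand. Sites were listed in 1 of 8 lymphocyte markers (Nkg7), 0 of 5 erythroid markers, 1 of 6 stroma and endothelium markers (Pecam1) and 6 of 6 pancreatic islet hormone genes, which held 593 sites. Of these hormone genes 4 are on the minus strand, with 228 sites in Gcg, 139 in Ins2, 24 in Sst and 12 in Ppy, so a high count on that strand did occur in the table. A site needs reads, and expression was not measured by this table; the part of other cells in the members' sites was not tested.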

How the data were processed

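Poly(A) RNA of 2 Tet2 KO and 2 WT libraries was bisulfite-converted and sequenced, with 70000000 single-end reads planned per sample; library totals were not used here. Per the submitters' processing notes the build was mm10. No source used here names the aligner or the site caller. Covering reads and C reads are, per the file headers and the values, not normalized: reads of 1 library where 1 replicate was called, and otherwise a score, the mean rounded by the authors. The deposited level is a fraction, averaged over the replicates with a call. In the authors' deposited table the combined p-values at member sites reached at most 0.0773 (rate) and 0.000114 (state). Columns from another series numbered 0. Normalized read columns were not used.

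Reads used were C reads divided by the level, whole at 100% of 434725 sites with 1 call (tolerance 0.0006). The spread listed by the authors was taken as a population SD: 80.6% of 16570 sites called in both replicates with at most 15 covering reads gave whole reads in this way, beside 6.15% with the other divisor (tolerance 0.0012). SDs given are sample SDs, and replicate levels are the mean plus and minus the deposited SD. Levels got Wilson and shares Clopper-Pearson 95% intervals. Of the labels, 7806 of 7821 matched RefSeq (GRCm38.p6), whose gene spans and sequences were used. Code was tested on simulated data (Python 3.11.15, SciPy 1.17.1, pandas 2.3.3).

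The members and lists were chosen with earlier results of these data known. Named sites were, per member, the site of highest level (at 20 or more covering reads), the most reads used in 1 call and the deepest site called in both replicates. Of other pathway genes, the top 2 by sites in each role were named, besides Tet2. A gene that this rule names is not reported here. The bases under sites, the limit of 70% of reads used, the Jak2 and Il3ra sites in the printed stretches, the Csf2rb sites 78348590, 78350882 and 78340537, the sites with the largest replicate difference, genes without sites, the depth comparison in Jak2, Cish, Socs2 and Socs3 were chosen after their values were seen. The planned test of Tet2 KO against WT was not made, since the table has no WT values. Alternatives were coverage minimums of 20 and 50, calls in both replicates, sites outside runs, sites with 1 gene label, and leaving out Csf2rb and Csf2rb2. For single calls alone they were a minimum of 20 reads used and the share of reads used.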

Additional observations from a re-analysis of the deposited data

How the results depend on the processing

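No paired analysis was possible because the table has no WT values, and no replicate could be left out because it has no single-library values. The 10 genes held 409 sites at 20 or more covering reads, 54 at 50 or more, 126 with calls in both replicates, 146 with 20 or more reads used, 304 outside runs and 196 with under 70% of reads used. At least 1 site remained in 6 genes at 50 reads and in 6 with calls in both replicates; 24 other pathway genes had one at 50 reads, instead of 38. The pooled median level of 0.5 moved to 0.3625 at 50 reads and lay between 0.4645 and 0.5 elsewhere. The share called in both replicates was 18.8% at 20 and 18.5% at 50 reads. The share in the last 10% of the span was 20.4% at 50 reads, 31.7% for calls in both replicates, 19.9% with 20 or more reads used and 36.4% without Csf2rb and Csf2rb2. The share with a neighbour within 10 bases was 46.3% at 50 reads, 62.3% with 20 or more reads used and 59.2% with under 70% used. The last filter was added after the data were examined, and the cause of these shifts was not tested.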

Other observations

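In the spans of the 10 genes, 1 listed site on the gene's strand lacked the gene's label, and 0 sites lay on the opposite strand. The unlabelled site, 14346490 in the span of Il3ra, was called in both Tet2 KO replicates at a level of 0.227 in each, with a mean of 39 covering reads. Its level was below those of the 3 labelled cytosines 16 to 20 bases downstream, which were 0.623, 0.725 and 0.772.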
